A study of Mus musculus with 8 samples.

Results

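Type I interferon-stimulated genes were followed in RNA of cells enriched for c-Kit from B16F10 melanomas that carried or lacked PERK. The set was made of 42 antiviral and interferon-stimulated genes, picked by symbol from a count table of 55450 genes. All 42 were in the table, and all 42 were among the 16662 genes that had enough counts to be tested. B16F10 is an aggressive melanoma line of C57BL/6 origin, and PERK is the stress kinase through which misfolded proteins in the endoplasmic reticulum slow down translation. The hosts were wild-type C57BL6 mice of 6 weeks that were matched for age and sex and given 150000 cells subcutaneously, either Scramble B16F10 (the control) or PERK KO B16F10. After 17 days each tumour was digested, red cells were lysed and cells carrying c-Kit, the receptor for stem cell factor, were enriched on magnetic beads without flow sorting. There were 8 libraries, of which scramble libraries 2 to 5 and PERK KO libraries 1 to 4 made up groups of 4. All of the mice were wild type, so the engineered difference lay in the injected cells, and the labels do not say whether either line was 1 clone.

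Total counts ran from 44950033 to 56697163 in scramble and from 29006949 to 47530393 in PERK KO libraries. Levels are given as CPM (counts relative to a common library total, scaled with TMM factors), and 3 counts corresponded to 0.0515 to 0.1 CPM, a floor that covers counting error only. Eif2ak3, which encodes PERK, lay between 48.3 and 59.2 CPM in scramble and between 7.73 and 22.7 CPM in PERK KO libraries, without overlap. Transcripts of 15 melanocyte lineage markers summed to between 29497 and 30154 CPM in scramble and between 20859 and 25259 CPM in PERK KO libraries, so the enriched material, labelled as precursors, carried much RNA of that lineage. In the same libraries 20 pan-leukocyte markers summed to between 355 and 438 CPM in scramble and between 710 and 1917 CPM in PERK KO. In bulk RNA of this kind, more cells of a type and more RNA per cell cannot be told apart.

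Type I interferons are secreted proteins that bind the receptor pair IFNAR1 and IFNAR2. The receptor's kinases JAK1 and TYK2 start a relay that includes STAT2 and IRF9 and ends at a promoter element called the interferon-stimulated response element. The genes switched on this way detect foreign nucleic acid, block viral translation and replication, or adjust the response itself, and many of them are kept at a basal level in leukocytes and in tumour cells. Interferon gamma has a receptor of its own, acts at a different element, the gamma-activated site, and shares many of the same targets.

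Since many interferon-stimulated genes carry the response element in their promoters, it was looked for first. Promoters from RefSeq on GRCm38.p6 (mm10), 250 bases before to 50 bases after each transcript start, were at hand for 31 of the 42 genes. The core GAAANNGAAA, on either strand and with overlapping matches allowed, occurred in 15 of these 31 genes (48.4%), against 3.99% of 27025 genes and 3.44% of 32851 promoters. The gamma-activated site TTCNNNGAA, which reads alike on both strands, occurred in 6 of the 31 (19.4%), against 9.55% of all genes. The upstream sequences below were all picked from the 15 genes with a match, so they do not show how common the core is. In the promoters of Oasl1, Oasl2, Trim25 and Sp100, all called higher in the comparison below, no match was found. Each sequence is read 5′ to 3′ in the direction of the gene, with every match to the core or its reverse complement in capitals.
Isg15, chr4:156200819-156201068, minus strand: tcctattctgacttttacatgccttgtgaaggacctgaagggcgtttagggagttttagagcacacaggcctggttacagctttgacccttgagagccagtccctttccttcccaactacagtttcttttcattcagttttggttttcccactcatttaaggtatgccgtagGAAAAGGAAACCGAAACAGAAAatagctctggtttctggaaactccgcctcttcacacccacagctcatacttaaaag
Ifit1, chr19:34640770-34640828, plus strand: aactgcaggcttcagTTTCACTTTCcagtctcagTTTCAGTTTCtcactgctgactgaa
Ifit3, chr19:34583358-34583431, plus strand: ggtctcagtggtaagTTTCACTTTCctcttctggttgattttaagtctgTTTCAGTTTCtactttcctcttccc
Ifit3b, chr19:34607754-34607827, plus strand: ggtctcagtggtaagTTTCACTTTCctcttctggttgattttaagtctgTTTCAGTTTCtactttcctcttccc
Rsad2, chr12:26456548-26456587, minus strand: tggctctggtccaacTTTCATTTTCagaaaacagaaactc
Oas3, chr5:120777710-120777749, minus strand: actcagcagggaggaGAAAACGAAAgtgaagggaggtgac
Bst2, chr8:71537572-71537617, minus strand: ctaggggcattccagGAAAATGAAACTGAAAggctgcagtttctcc

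In Isg15 the capitals are 3 overlapping matches, the first 78 bases before the start. Ifit1 carries 2 separate matches, and Ifit3 and Ifit3b share one and the same stretch of 74 bases with 2 matches. Genes with and without a call in the comparison below are both among those shown, since Bst2 and Ifit3b did not pass the test. The core was found in 9 of 17 genes called higher and in 6 of 14 genes not called, and the gamma-activated site in 1 of those 17 (5.88%) and 5 of those 14 (35.7%), counts that were not tested. A match describes the letters only, and a promoter without one says nothing about the factor.

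The comparison asked how these genes differ when the melanoma cells lack PERK. With edgeR's quasi-likelihood test and a threshold of 0.05 on the p adjusted by Benjamini and Hochberg, 23 of the 42 genes (54.8%) were higher in PERK KO tumours, beside 7.66% of all 16662 genes tested. None was lower, beside 6.13% of all genes, and none was lower with DESeq2 or limma-voom. Unadjusted, 33 of the 42 had p under 0.05, and all 42 estimates lay above 0. The median difference was 1.05 on the log2 scale, with a range from 0.03 to 4.06, while the median over all genes tested was -0.02. The 4 PERK KO libraries lay above all 4 scramble libraries for 24 of the 42 genes (57.1%), beside 10.2% of all genes. Those 24 were 22 of the genes called, all but Oas3, together with Irf7 and Lgals3bp. The count of 23 fell to 13 without scramble library 2, to 12 without scramble library 3 and to 13 without scramble library 5, with all of the calls that were left among the 23. It was 16 without scramble library 4 and between 21 and 27 without any 1 PERK KO library.

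**Figure D1:**
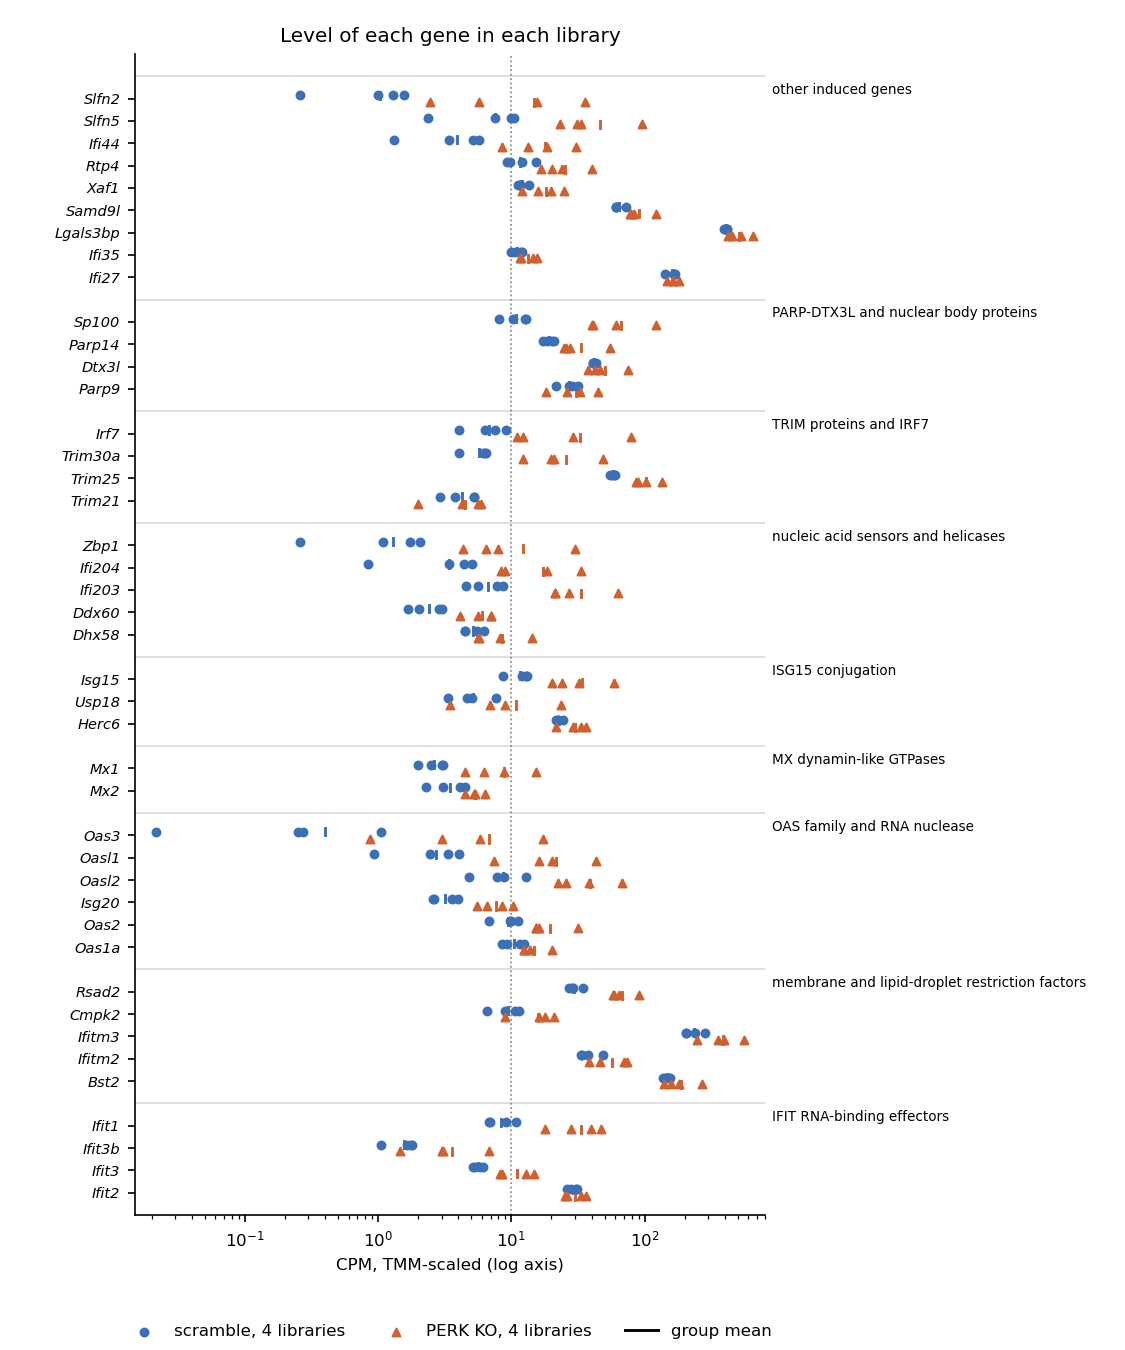
Level of each of the 42 genes in each library, in TMM-scaled CPM on a log axis, grouped by role; circles are the 4 scramble libraries, triangles the 4 PERK KO libraries and short bars the group means. Triangles lie right of all circles for 24 genes, and the dotted line marks 10 CPM.

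The IFIT proteins bind foreign RNA and block its translation, and their 4 genes lie side by side on chromosome 19. Of the 4, Ifit1 and Ifit3 were higher and Ifit2 and Ifit3b did not pass. Ifit1 (chr19:34640871-34650009), which recognises RNA caps that lack host methylation, stood at 6.84, 9.15, 6.95 and 10.8 CPM in scramble libraries 2 to 5 and at 46.9, 18, 27.8 and 39.7 CPM in PERK KO libraries 1 to 4. Every PERK KO library was above every scramble library, with library 1 the highest. PERK KO exceeded scramble by a log2 difference of 1.97 (SE 0.28, n = 4 and 4, edgeR adjusted p = 0.00161). Ifit3 (chr19:34583531-34588731), a partner of IFIT1, measured 5.79, 5.32, 5.13 and 6.11 CPM in scramble and 8.51, 14.7, 8.22 and 12.8 CPM in PERK KO libraries, again without overlap (log2 difference 0.99, SE 0.24, edgeR adjusted p = 0.0198). Its call ended without any 1 of the scramble libraries, at edgeR adjusted p from 0.0503 to 0.0714. Ifit2 (chr19:34550694-34576419), which binds AU-rich RNA, had 28, 26.2, 30.9 and 30.4 CPM in scramble and 33.3, 26.3, 25.1 and 36 CPM in PERK KO libraries. The groups were mixed, and the log2 difference was 0.06 (SE 0.14, edgeR adjusted p = 0.846). Ifit3b, a near copy of Ifit3, went from 1.57 ± 0.353 to 3.58 ± 2.25 CPM (SD, n = 4 and 4) without passing (edgeR adjusted p = 0.152). How the counting treated reads that fit both Ifit3 and Ifit3b is not given.

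Of 4 genes that act at membranes or lipid droplets and Cmpk2, a mitochondrial kinase grouped here for its place next to Rsad2, Rsad2 alone was higher. Rsad2 (chr12:26442746-26456452) encodes viperin, which makes a chain-terminating nucleotide. It had 27.1, 34.2, 28.7 and 28.8 CPM in scramble and 63.7, 58.6, 57.8 and 90.7 CPM in PERK KO libraries. The groups were far apart and narrow, and the log2 difference of 1.19 (SE 0.15) had the smallest adjusted p of the 42 genes (edgeR, 0.000917). Ifitm3 (chr7:141009586-141010770), which blocks fusion of viruses in endosomes, stood at 204, 239, 203 and 286 CPM in scramble and 354, 397, 246 and 560 CPM in PERK KO libraries. PERK KO library 3 fell within the scramble range, and the difference of 0.74 just missed the threshold (SE 0.22, edgeR adjusted p = 0.0509), passing at 0.00774 when that library was left out. Ifitm3 also passed with DESeq2 (adjusted p = 0.0284), limma-voom (0.0212), RLE or upper-quartile scaling, the stricter filter and the fit that is not robust, 7 of 19 alternatives in all. Bst2 (chr8:71534255-71537456), the tetherin that holds budding virus at the cell surface, had 143, 152, 138 and 155 CPM in scramble and 180, 140, 159 and 269 CPM in PERK KO libraries, an overlap with library 4 well above the rest (edgeR adjusted p = 0.208). Cmpk2, which phosphorylates nucleotides, measured 8.98, 11.5, 6.61 and 10.7 CPM in scramble and 20.9, 16.1, 9.01 and 17.8 CPM in PERK KO libraries, with library 3 inside the scramble range (log2 difference 0.75, edgeR adjusted p = 0.0812). Ifitm2, a relative of Ifitm3 whose exons overlap Gm45717 on the same strand, went from 38.4 ± 7.31 to 57.2 ± 17.6 CPM (SD, n = 4 and 4, edgeR adjusted p = 0.0953). Ifitm2 and Cmpk2 also passed without PERK KO library 3, at edgeR adjusted p = 0.0285 and 0.0173.

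The OAS enzymes sense double-stranded RNA and, in most members, make the messenger that activates RNase L. Of 6 genes with the nuclease Isg20, 5 were higher, and Oas1a was the exception. Oasl2 (chr5:114896936-114912234), a ubiquitin-like member, had 7.86, 8.84, 4.85 and 12.9 CPM in scramble and 22.2, 38.5, 25.9 and 67.8 CPM in PERK KO libraries (log2 difference 2.16, SE 0.40, edgeR adjusted p = 0.00834). Its neighbour Oasl1 (chr5:114923240-114937915), which limits translation of Irf7, had 3.37, 4.04, 0.931 and 2.46 CPM in scramble and 16, 20.2, 7.43 and 43.4 CPM in PERK KO libraries (log2 difference 3.01, SE 0.59, edgeR adjusted p = 0.0116). For both genes the groups were separate, scramble library 4 was the lowest and PERK KO library 4 the highest of all. Oas2 (chr5:120730333-120749853) stood at 11.2, 9.77, 6.8 and 10 CPM in scramble and 15.4, 15.2, 16 and 31.7 CPM in PERK KO libraries, so that 3 PERK KO libraries agreed closely and library 4 was far above them (log2 difference 1.05, SE 0.26, edgeR adjusted p = 0.0214). Oas3 (chr5:120753098-120777661), in the same cluster, was scarce, with 0.272, 1.05, 0.0217 and 0.252 CPM in scramble and 0.871, 5.83, 3.02 and 17.3 CPM in PERK KO libraries. It had the largest estimate of the 42 genes, 4.06 (SE 1.08, edgeR adjusted p = 0.0337), but PERK KO library 1 lay below scramble library 3. That estimate became 3.00 without PERK KO library 4 (edgeR adjusted p = 0.0754) and 5.18 without scramble library 3.

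Oas1a (chr5:120896256-120907521) had 8.47, 12.5, 9.31 and 11.6 CPM in scramble and 13.7, 12.4, 12.5 and 20.3 CPM in PERK KO libraries, and the groups met near 12.5 CPM (log2 difference 0.49, edgeR adjusted p = 0.159). Oas1a belongs to a family of near copies, and how the counting treated reads that fit several of them is not given. Isg20, an exonuclease for single-stranded RNA, rose from 3.18 ± 0.683 to 7.68 ± 2.08 CPM (SD, n = 4 and 4, edgeR adjusted p = 0.0162). Within this group of genes, the calls of Oas2, Oas3 and Isg20 depended on single libraries. Oas2 lost its call without scramble library 3, 4 or 5 (edgeR adjusted p from 0.0554 to 0.0671) and Isg20 without scramble library 2 or 3 (0.056 and 0.0626). Oas3 lost it without scramble library 2, 4 or 5 or PERK KO library 2 (0.0501 to 0.113). Oasl1 overlaps Gm13822 on the opposite strand, and it is not known here whether the counting used strand.

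MX proteins are dynamin-like GTPases that trap viral nucleocapsids. Mx1 (chr16:97447035-97462907) had 2.48, 3.09, 2.01 and 3.02 CPM in scramble and 4.49, 8.81, 6.22 and 15.4 CPM in PERK KO libraries, a separation of the groups with a log2 difference of 1.72 (SE 0.38, edgeR adjusted p = 0.0127). Mx2 (chr16:97535308-97560900) had 2.28, 4.48, 3.05 and 4.1 CPM in scramble and 4.46, 5.32, 5.27 and 6.34 CPM in PERK KO libraries. Here PERK KO library 1 lay just under scramble library 3, and the difference of 0.62 did not pass (SE 0.31, edgeR adjusted p = 0.234). Most inbred strains, C57BL/6 among them, are known to carry an Mx1 gene that makes no working protein.

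ISG15 is a ubiquitin-like protein that is attached to other proteins, HERC6 attaches it in mice and USP18 takes it off and also damps the interferon receptor. Isg15 (chr4:156199424-156200818) had 12.8, 12.1, 8.71 and 13 CPM in scramble and 32.2, 24, 20.3 and 59.1 CPM in PERK KO libraries. All PERK KO libraries were above the scramble range, and the log2 difference was 1.54 (SE 0.30, edgeR adjusted p = 0.00828). Usp18 (chr6:121245906-121270917) had 5.07, 4.64, 3.36 and 7.7 CPM in scramble and 6.93, 3.49, 9.01 and 23.7 CPM in PERK KO libraries. PERK KO libraries 1 and 2 lay within the scramble range and library 4 far above it, so the estimate of 1.05 had a wide error (SE 0.50, edgeR adjusted p = 0.207) and was 0.32 without library 4. Herc6 (chr6:57581000-57664632) had 22.4, 24.6, 21.8 and 22.3 CPM in scramble and 36.3, 21.6, 33.3 and 29.2 CPM in PERK KO libraries, with library 2 below the lowest scramble library (log2 difference 0.40, edgeR adjusted p = 0.118). Herc6 passed without that library (edgeR adjusted p = 0.0176). The exons of Usp18 and Herc6 overlap Gm44148 on the opposite and Gm45193 on the same strand.

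Of 5 sensors and helicases of nucleic acid, 4 were higher. Ifi203 and Ifi204 belong to the AIM2-like receptor family of DNA-binding proteins on chromosome 1. Ifi203 (chr1:173920407-173942672) had 7.87, 5.65, 4.53 and 8.59 CPM in scramble and 27.1, 21.2, 21.2 and 63.6 CPM in PERK KO libraries (log2 difference 2.32, SE 0.38, edgeR adjusted p = 0.00443), and Ifi204 (chr1:173747293-173766943) had 4.44, 3.38, 0.845 and 5.07 CPM in scramble and 8.41, 18.6, 9.03 and 33.2 CPM in PERK KO libraries (log2 difference 2.33, SE 0.59, edgeR adjusted p = 0.0299). Zbp1 (chr2:173206612-173218923), a sensor of Z-form nucleic acid that can start necroptosis, had 2.06, 1.75, 0.26 and 1.08 CPM in scramble and 6.46, 7.88, 4.32 and 30 CPM in PERK KO libraries (log2 difference 3.23, SE 0.75, edgeR adjusted p = 0.0203). The groups were separate for all 3 genes, with PERK KO library 4 the highest and scramble library 4 the lowest. Ddx60, a helicase linked to RIG-I signalling, rose from 2.4 ± 0.642 to 5.97 ± 1.38 CPM (SD, n = 4 and 4, edgeR adjusted p = 0.0227). Dhx58, which encodes the RNA helicase LGP2, lay between 4.51 and 6.2 CPM in scramble and between 5.66 and 14.4 CPM in PERK KO libraries, with overlap (edgeR adjusted p = 0.18).

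Among these sensors, 3 calls ended when 1 library was left out. Ddx60 did not pass without scramble library 3, 4 or 5 (edgeR adjusted p from 0.0594 to 0.0716), nor did Zbp1 without scramble library 3 or 5 (0.0641 and 0.0696) or Ifi204 without scramble library 2, 3 or 5 or PERK KO library 2 (0.0538 to 0.0991). The estimate for Zbp1 became 2.26 without PERK KO library 4. Ifi203 and Ifi204 have near copies in their family, Ifi203 shares exon sequence with Mndal on the same strand, and Dhx58 overlaps Dhx58os on the opposite strand.

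TRIM proteins are mostly ubiquitin ligases, and IRF7 is the transcription factor that amplifies interferon production. Trim25 (chr11:88999376-89020293), a ligase that activates RIG-I, had 58.7, 56.6, 59.7 and 54.9 CPM in scramble and 103, 86.7, 89.7 and 134 CPM in PERK KO libraries. The scramble libraries agreed within a few CPM and every PERK KO library was above them, with a log2 difference of 0.85 (SE 0.13, edgeR adjusted p = 0.00247). Trim30a (chr7:104409025-104465193), a restraint on Toll-like receptor signalling, had 6.43, 6.13, 4.07 and 6.38 CPM in scramble and 12.3, 20, 20.8 and 48.8 CPM in PERK KO libraries (log2 difference 2.15, SE 0.37, edgeR adjusted p = 0.00482). Irf7 (chr7:141262706-141266481) had 9.11, 7.49, 4.07 and 6.35 CPM in scramble and 11.1, 28.9, 12.2 and 79.4 CPM in PERK KO libraries. Its groups did not overlap, but PERK KO libraries 1 and 3 lay close to the scramble range while library 4 was far above it, and the estimate of 2.28 had an SE of 0.66 and did not pass (edgeR adjusted p = 0.0594). Without PERK KO library 4 the Irf7 estimate was 1.36 and passed (edgeR adjusted p = 0.033). Irf7 also passed with DESeq2 (adjusted p = 0.00689), limma-voom (0.0234), the stricter filter and the fit that is not robust, and without PERK KO library 1 or 3. Irf7 overlaps exons of Phrf1 on the opposite strand. Trim21, a receptor for antibody inside cells, stood at 4.28 ± 1.15 and 4.46 ± 1.79 CPM (SD, n = 4 and 4, edgeR adjusted p = 0.95).

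PARP9 and DTX3L form a complex of an ADP-ribosyltransferase relative and a ubiquitin ligase, PARP14 is an ADP-ribosyltransferase and SP100 a protein of nuclear bodies that silences incoming DNA. Sp100 (chr1:85649988-85709998) had 12.8, 10.2, 8.01 and 12.6 CPM in scramble and 40.9, 60.7, 40.4 and 122 CPM in PERK KO libraries. The lowest PERK KO library was several times the highest scramble library, and the log2 difference of 2.60 (SE 0.37, edgeR adjusted p = 0.00347) was the largest among genes at 10 CPM or more in scramble. Sp100 overlaps n-R5s215 on the same strand and has near copies in the genome. Dtx3l (chr16:35926511-35939151) had 42.9, 40.8, 42 and 40.7 CPM in scramble and 42.3, 46.3, 37.7 and 75.4 CPM in PERK KO libraries, so that only library 4 stood far from a tight scramble group (log2 difference 0.28, edgeR adjusted p = 0.389). Parp14 (chr16:35832874-35871544), next in the same cluster, had 20.3, 20.9, 17.3 and 18.6 CPM in scramble and 24.8, 25.7, 27.4 and 55 CPM in PERK KO libraries, all above scramble (log2 difference 0.78, SE 0.24, edgeR adjusted p = 0.0469). The call of Parp14 ended without any 1 scramble library or PERK KO library 4 (edgeR adjusted p from 0.052 to 0.126). Parp9, whose exons overlap those of Dtx3l on the opposite strand, stood at 27.1 ± 4.2 and 30.4 ± 11 CPM (SD, n = 4 and 4, edgeR adjusted p = 0.729).

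Of the 9 remaining genes, 5 were higher. Ifi44 (chr3:151730922-151749960), a cytosolic protein of the antiviral response, had 3.4, 5.13, 1.32 and 5.73 CPM in scramble and 13.4, 18.6, 8.54 and 30.6 CPM in PERK KO libraries (log2 difference 2.19, SE 0.48, edgeR adjusted p = 0.0146). Rtp4 (chr16:23520291-23614222), a chaperone of receptor transport that also restricts viruses, had 9.83, 12.1, 9.23 and 15.3 CPM in scramble and 23.8, 20.3, 16.7 and 40.2 CPM in PERK KO libraries (log2 difference 1.12, SE 0.27, edgeR adjusted p = 0.0172). Neither gene had overlapping groups. Slfn2 (chr11:83065112-83070678), needed for quiescence of T cells, had 0.996, 1.56, 0.26 and 1.3 CPM in scramble and 2.45, 15.7, 5.71 and 35.8 CPM in PERK KO libraries (log2 difference 3.85, SE 0.88, edgeR adjusted p = 0.0226). Slfn5 (chr11:82951349-82964840), of the same Schlafen family, had 10.5, 7.57, 2.38 and 9.93 CPM in scramble and 23, 33.1, 31.3 and 96.3 CPM in PERK KO libraries (log2 difference 2.59, SE 0.60, edgeR adjusted p = 0.0276). Both Schlafen genes were lowest in scramble library 4 and highest in PERK KO library 4, and without the latter the estimates were 2.94 and 1.93.

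Samd9l (chr6:3372257-3399572), which arrests translation, had 61.1, 61.2, 61.1 and 72.2 CPM in scramble and 77.6, 83.3, 78.4 and 122 CPM in PERK KO libraries. The groups were separate, though by little, with a log2 difference of 0.50 (SE 0.14, edgeR adjusted p = 0.0387). Lgals3bp (chr11:118392751-118402092), a secreted glycoprotein, had 412, 416, 397 and 402 CPM in scramble and 419, 648, 450 and 529 CPM in PERK KO libraries. Its groups did not overlap, but library 1 came within a few CPM of scramble and the difference of 0.33 did not pass (SE 0.12, edgeR adjusted p = 0.0999). Ifi27 (chr12:103434211-103440239), a small membrane protein, had 166, 170, 141 and 167 CPM in scramble and 163, 164, 148 and 182 CPM in PERK KO libraries. The Ifi27 groups coincided, with the smallest estimate of the set (log2 difference 0.03, SE 0.09, edgeR adjusted p = 0.895).

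Ifi35, a partner of NMI, had 11.8, 12, 9.96 and 10.6 CPM in scramble and 11.6, 15.7, 11.8 and 14.6 CPM in PERK KO libraries, with overlap (edgeR adjusted p = 0.361). Xaf1, which promotes cell death, went from 12 ± 1.08 to 18.1 ± 5.46 CPM (SD, n = 4 and 4, edgeR adjusted p = 0.0882) and passed without PERK KO library 1 (0.0216). Lgals3bp also passed without that library (edgeR adjusted p = 0.0372). Among the 5 genes called here, each lost its call when some single library was left out. Ifi44 lost it without scramble library 2 (edgeR adjusted p = 0.0542), Rtp4 without scramble library 2, 3 or 4 (0.0536 to 0.0596), and Slfn2 and Slfn5 without scramble library 2, 3 or 5 (0.0604 to 0.0943). Samd9l lost it without any 1 scramble library or PERK KO library 2 or 4 (0.0549 to 0.114). Rtp4 overlaps Gm45338 on the same strand, and Slfn5 and Ifi35 overlap Slfn5os and Gm11626 on the opposite strand.

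The 10 genes whose call held whichever library was left out were Ifit1, Rsad2, Oasl1, Oasl2, Mx1, Isg15, Ifi203, Trim25, Trim30a and Sp100.

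**Figure D2:**
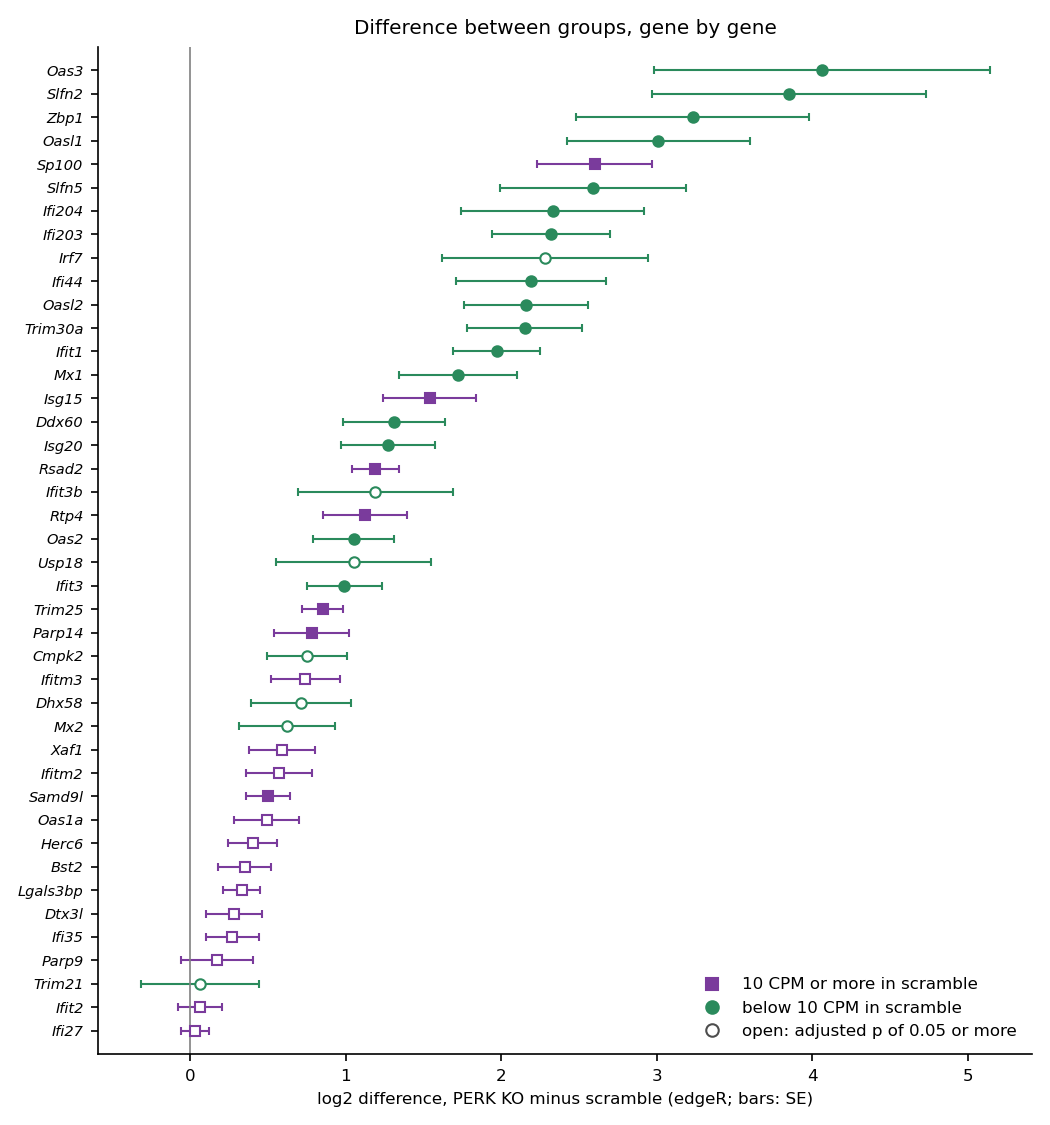
The log2 difference, PERK KO minus scramble, of each gene from edgeR with its SE as a bar; squares are genes at 10 CPM or more in scramble, circles genes below, and open symbols have an adjusted p of 0.05 or more. Estimates run from 0.03 for Ifi27 to 4.06 for Oas3, and the 23 filled symbols are the genes called higher.

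The genes were then divided by whether they already stood at a mean of 10 CPM or more in scramble tumours. The 19 genes at or above that level were Lgals3bp, Ifitm3, Ifi27, Bst2, Samd9l, Trim25, Dtx3l, Ifitm2, Rsad2, Ifit2, Parp9, Herc6, Parp14, Xaf1, Isg15, Rtp4, Ifi35, Sp100 and Oas1a. Of these, 7 (36.8%) were higher in PERK KO tumours, beside 4.9% of all 8938 tested genes at that level, and 8 had separate groups, beside 6.47%. Their median log2 difference was 0.50, and that of all genes at that level -0.09. Of the 23 genes below 10 CPM, 16 (69.6%) were higher, beside 10.9% of all 7724 tested genes below it, and 16 had separate groups, beside 14.5%. The median was 1.97 for these 23 and 0.26 for all genes below the level. The division uses the scramble values of the comparison itself, so it was not tested.

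Just below the limit were Oasl2, Cmpk2 and Oas2, at 8.61, 9.44 and 9.45 CPM in scramble, and just above it Oas1a, Sp100 and Ifi35, at 10.5, 10.9 and 11.1 CPM. When the same limit was set on the mean over all 8 libraries, which treats the groups alike, the contrast in counts was small. By that mean 16 of 30 genes at or above 10 CPM (53.3%) and 7 of 12 below it (58.3%) were higher, with medians of 0.81 and 1.23, beside 7.23% of 9109 and 8.18% of 7553 genes tested in the same classes. Without PERK KO library 4, the median of the 23 genes below 10 CPM in scramble was 1.36. Without scramble library 2, 3 or 4, 4 of the 19 genes above the limit were called, and without scramble library 2, 3 or 5, 8 or 9 of the 23 below it.

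Within narrow ranges of scramble level, the genes also sat high among all genes of like level. From 3 to 10 CPM, 9 of 16 lay above the 90th percentile of all log2 differences, which was 1.07. From 10 to 30 CPM, 7 of 11 lay above that percentile, which was 0.43, and from 30 to 100 CPM all 4 did (0.27). Summed over genes, the 19 at 10 CPM or more took 1345 ± 76.3 CPM in scramble and 1916 ± 411 CPM in PERK KO (SD, n = 4 and 4), a ratio of 1.42. The 23 below it took 109 ± 23.1 and 402 ± 225 CPM, a ratio of 3.68.

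**Figure D3:**
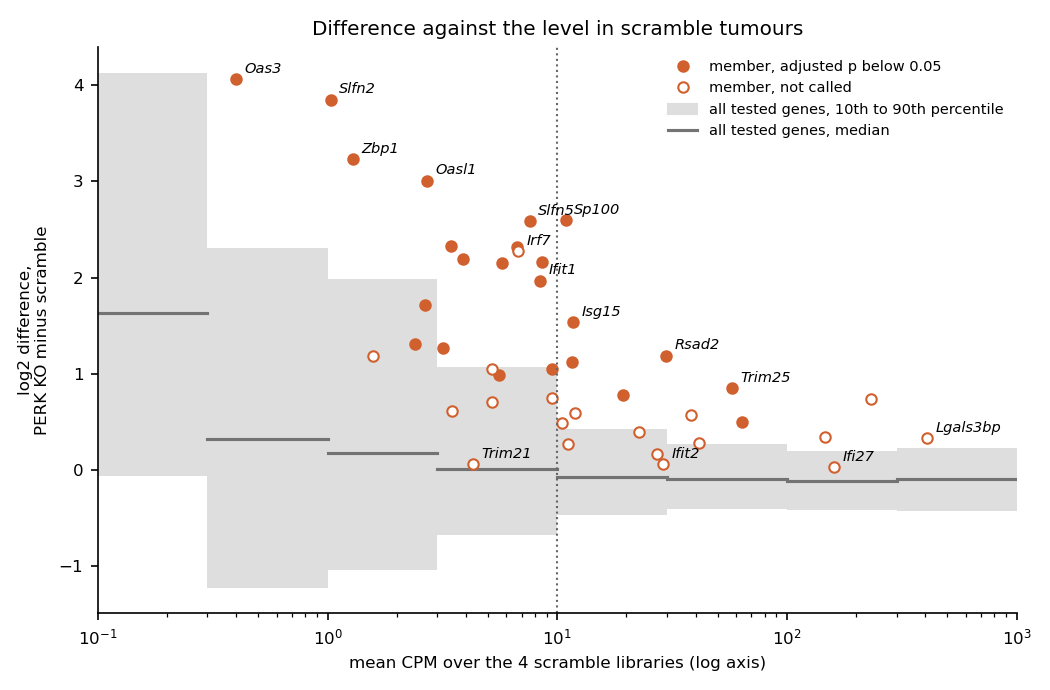
The log2 difference of each gene against its mean CPM over the 4 scramble libraries (log axis); filled circles passed the test, grey boxes span the 10th to the 90th percentile of all tested genes of like level and grey lines are their medians. Differences shrink to the right, and 7 of 11 genes between 10 and 30 CPM lie above the box.

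Relative to transcript length, Ifitm3, Bst2 and Lgals3bp had the highest scramble levels of the set, at 344, 163 and 143 CPM per kb of exon, followed by Ifi27 at 110 and Ifitm2 at 58.7. Isg15, whose transcript is short, reached 15.4 CPM per kb in scramble and 44.9 in PERK KO. Oas3 was the scarcest, at 0.0563 CPM per kb in scramble and 0.956 in PERK KO.

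Genes of the set varied more among PERK KO tumours than among scramble tumours. The median coefficient of variation was 39.4% over the 4 PERK KO libraries and 19.7% over the 4 scramble libraries. It was not computed over all tested genes, so the wider spread is not shown to be particular to the set. PERK KO library 4 was the highest of its group for 34 of the 42 genes and the lowest for none, and scramble library 4 was the lowest of its group for 28. The 5 genes with their PERK KO maximum in library 2 included Lgals3bp and Ifit3, and Ifit1, Cmpk2 and Herc6 peaked in library 1. With both of these libraries numbered 4 left out, an alternative chosen after the data were seen, 14 genes were higher, all of them among the 23, and the median log2 difference was 0.71.

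The same 2 libraries stood at the ends of the leukocyte markers. Beside every count of markers called here and below, 7.66% of all genes tested were higher and 6.13% lower in edgeR. Summed pan-leukocyte markers were lowest in scramble library 4, at 355 CPM, and highest in PERK KO library 4, at 1917 CPM, and 18 of the 20 were called higher in edgeR. Most of the scramble sum was Arhgdib, at 223 to 263 CPM, which was not called (log2 difference 0.19, edgeR adjusted p = 0.428). Mast cell markers were called in 9 of 9 and ranged from 23.3 to 166 CPM in scramble and from 706 to 3112 CPM in PERK KO libraries. For dendritic cells 8 of 10 markers were called, with sums of 15.5 to 40.4 and 162 to 922 CPM. Most of the dendritic cell sum was H2-Ab1, at 8.99 to 23 CPM in scramble and 109 to 671 CPM in PERK KO libraries. The markers not called were Zbtb46 and Cd209a (edgeR adjusted p = 0.118 and 0.182). For macrophages 10 of 12 were called (1029 to 1140 and 1098 to 2363 CPM), and for monocytes 6 of 8 (10.6 to 29.6 and 87.4 to 218 CPM). Most of the macrophage sum in scramble was Apoe, at 934 to 972 CPM, which was not called either (log2 difference 0.02, edgeR adjusted p = 0.97). Blood progenitor markers were called in 6 of 12 tested (116 to 143 and 188 to 391 CPM). Epithelial markers were called in 10 of 11 (5.27 to 7.66 and 102 to 262 CPM), and 9 of 15 melanocyte lineage markers were lower. Epithelial markers near 0 in scramble had enough counts to be tested only through the PERK KO libraries, so their calls were nearly fixed in advance. Among them were Ehf, with no count in any scramble library, Krt7, Krt18, Cldn3 and Cldn4. Leaving out scramble library 3 left 9 pan-leukocyte, 4 mast cell, 4 dendritic cell and 5 macrophage markers with a call, and scramble libraries 2 and 5 also lowered the dendritic cell count, to 5 and 4. Without PERK KO library 2, 1 macrophage marker was called lower.

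Markers of T cells, NK cells and neutrophils had low sums, while B cell markers reached higher ones. None of 5 tested T cell markers was called in edgeR or limma-voom, 1 was with DESeq2 and 1 had an unadjusted p under 0.05 (1.26 to 2.82 CPM in scramble and 2.31 to 28.6 CPM in PERK KO), and of the tested NK cell, B cell and neutrophil markers 1 of 4, 2 of 5 and 1 of 3 were called. Their sums were 1.39 to 3.23 and 3.72 to 49.2 CPM for NK cells, 3.57 to 18.2 and 40.4 to 244 CPM for B cells, and 0.58 to 2.28 and 2.34 to 13.5 CPM for neutrophils, whose markers Ly6g, Camp and Ngp had no count in any library. The B cell markers called were the immunoglobulin genes Ighm, with 12.2, 4.02, 2.12 and 2.9 CPM in scramble and 28, 54.7, 68.4 and 173 CPM in PERK KO libraries, and Igkc, with means of 2.09 and 28.9 CPM. The B cell count was 1 without scramble library 3 or 5. The neutrophil count was 0 with limma-voom, without any 1 scramble library and without PERK KO library 2 or 4. Plasmacytoid dendritic cells are known as strong producers of type I interferon. Of their markers 2 of 5 tested were called, Ly6d and Runx2, and the sums, most of which was Tcf4, were 74.2 to 101 and 76.8 to 109 CPM. Ly6d, with 11, 2, 0 and 10 counts in scramble, also had enough counts to be tested only through the PERK KO libraries. Siglech, a defining marker of these cells, had 0.253, 0, 0 and 0 CPM in scramble and 0, 0, 0.0232 and 1.61 CPM in PERK KO libraries, so that 5 of the 8 libraries had no count. None of 9 endothelial markers (62.1 to 233 and 107 to 312 CPM) and 1 of 9 fibroblast and mural markers (21.1 to 235 and 64.1 to 247 CPM) were called in edgeR, the endothelial ones neither by DESeq2 nor at an unadjusted p under 0.05. The fibroblast and mural count was 0 without scramble library 3, 4 or 5 or PERK KO library 3 and 2 without scramble library 2. Scramble library 4 had the lowest sums of both lists, 62.1 and 21.1 CPM, with the next scramble library at 205 and 50.4 CPM. PERK KO library 4, at 198 and 146 CPM, was not the highest for either list. What part any of these cell types had in the differences of the interferon-stimulated genes was not tested.

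**Figure D4:**
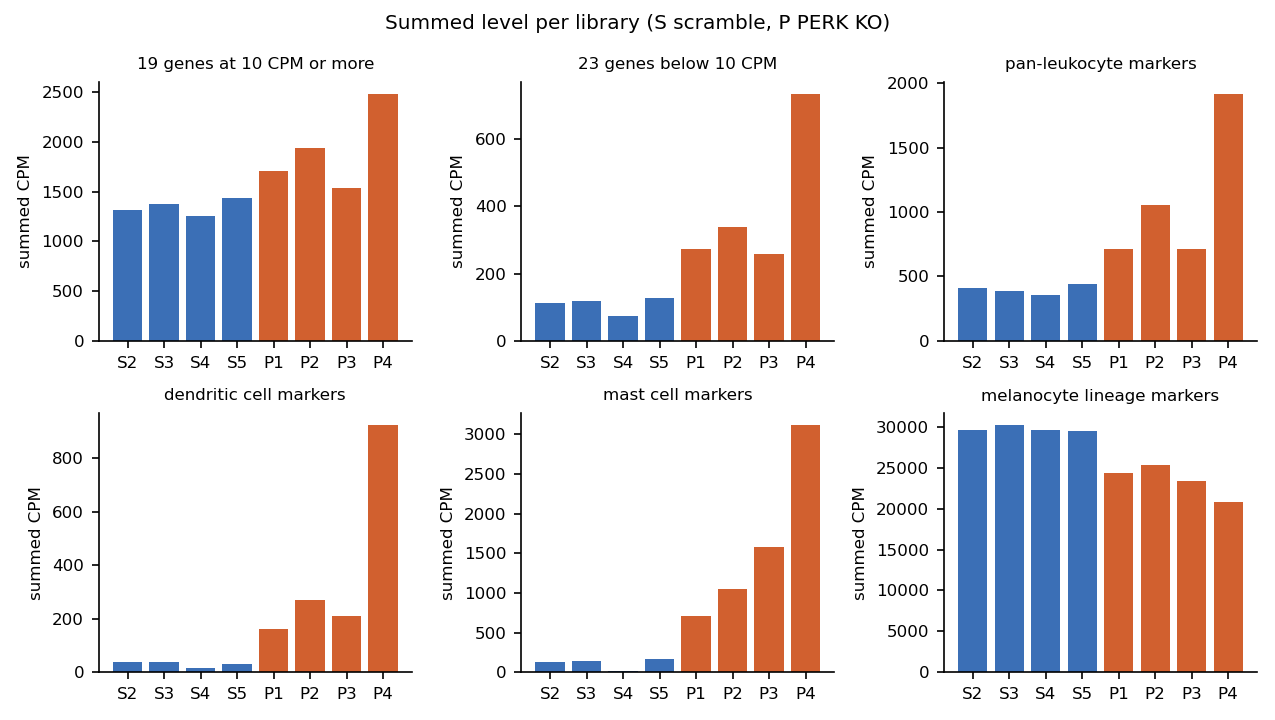
Summed CPM in each library (S scramble, P PERK KO) of the 19 genes at 10 CPM or more, the 23 genes below it and 4 lists of cell type markers; each bar is 1 library and every axis starts at 0. PERK KO library 4 has the highest bar in all panels but the melanocyte one, where it has the lowest, and scramble library 4 has the lowest scramble bar in the panels of the genes, leukocytes, dendritic cells and mast cells.

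Upstream of the set, RNA for interferons themselves was at or near 0. Of 21 interferon ligand genes in the table, 18, among them Ifnb1 and all of the Ifna genes listed, had no count in any of the 8 libraries, and none had enough counts to be tested. Ifng, the gene of interferon gamma, had 3 counts in scramble library 3 and 28, 15 and 8 counts in PERK KO libraries 1, 2 and 3, with none in the other libraries, including PERK KO library 4. Ifne had 5 counts in scramble library 3, and Ifnz had 4 and 30 counts in PERK KO libraries 1 and 2. For Ifnb1 and the other genes without a count, a level of up to 0.0515 to 0.1 CPM per library cannot be told from 0 at this depth.

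Receptor signalling was counted next. Of 11 genes tested, 2 were higher and 1 was lower in PERK KO tumours, beside 7.66% and 6.13% of all genes tested, with a median log2 difference of 0.27. Ifnar1, the receptor subunit bound by TYK2, went from a mean of 104 CPM in scramble to 73.9 CPM in PERK KO (log2 difference -0.49, SE 0.10, edgeR adjusted p = 0.00811), while Ifnar2 had 40.8 and 42.2 CPM (edgeR adjusted p = 0.855). Stat2 and Irf9, which act together downstream of the receptor, had log2 differences of 0.58 and -0.04 and did not pass (edgeR adjusted p = 0.0767 and 0.957), though Stat2 passed without PERK KO library 1 (0.0406). Irf1, an activator of both interferon pathways, rose by 0.63 (SE 0.15, edgeR adjusted p = 0.0196) and Ptpn6, a phosphatase that is also on the pan-leukocyte list, rose by 0.57 (SE 0.15, edgeR adjusted p = 0.0284). The call of Irf1 ended without any 1 scramble library (edgeR adjusted p from 0.0511 to 0.0692), and that of Ptpn6 without scramble library 2, 3 or 5 or PERK KO library 2 or 4 (0.0655 to 0.0924). Without scramble library 2, 3 or 5, 1 gene of the 11 was left with a call.

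Of 13 tested genes that sense nucleic acid and relay to interferon, 4 were higher and none lower in edgeR, DESeq2 or limma-voom, with 1 lower gene at an unadjusted p under 0.05. Over all genes tested, 7.66% were higher and 6.13% lower in edgeR. The 4 became 2 without scramble library 3, 4 or 5 or PERK KO library 4, and 1 gene was called lower without PERK KO library 2. The endosomal receptors Tlr7 and Tlr9 rose, with log2 differences of 2.92 and 3.84 (SE 0.49 and 0.55, edgeR adjusted p = 0.00341 and 0.00264), their adaptor Myd88 by 1.03 and the RNA sensor Ifih1 by 0.79 (0.0308 and 0.0286). For Tlr9 the estimate was 3.19 without PERK KO library 4. The call of Myd88 ended without scramble library 3, 4 or 5 or PERK KO library 4 (edgeR adjusted p from 0.0671 to 0.101). That of Ifih1 ended without any 1 scramble library or PERK KO library 2 or 4 (edgeR adjusted p from 0.0501 to 0.0801). Cgas, the DNA sensor, and Tmem173, which encodes STING, had log2 differences of 0.03 and 0.15 and did not pass (edgeR adjusted p = 0.946 and 0.706).

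Relatives of these genes in the same families were also counted. Of 28 tested, 15 were higher in edgeR, with a median log2 difference of 2.67. Over all genes tested 7.66% were higher, and 10.9% of those below 10 CPM in scramble. None of the 28 was lower in edgeR, DESeq2 or limma-voom or at an unadjusted p under 0.05. Some relatives, such as Trim30b with 1, 13, 11 and 0 counts in scramble, had enough counts to be tested only through the PERK KO libraries. The 15 became 9 without scramble library 2 and 7 without scramble library 3. Among them Ifitm1, a plasma membrane relative of Ifitm3, rose by 2.82 and Sp110, a relative of Sp100, by 3.18 (edgeR adjusted p = 0.00346 and 0.00398). Mndal, an AIM2-like receptor gene next to Ifi203, rose by 2.45 and Trim30d by 2.65 (0.00423 and 0.00461). Without PERK KO library 4 the estimate was 2.47 for Sp110 and 1.90 for Trim30d. Not every relative moved. Slfn3 and Slfn9 had -0.35 and -0.17 beside the rise of Slfn2 and Slfn5, and Oas1g had 0.01 (edgeR adjusted p = 0.218, 0.535 and 0.991).

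Of 36 further interferon-stimulated genes tested, 16 were higher in edgeR, beside 7.66% of all genes tested, with a median log2 difference of 0.55. None of the 36 was lower in edgeR, DESeq2 or limma-voom or at an unadjusted p under 0.05. Tap1 and Psmb8, of antigen processing, rose by 1.81 and 3.02 (edgeR adjusted p = 0.0033 and 0.00443), Phf11a by 4.36 and Nlrc5, the activator of MHC class I genes, by 1.38 (0.00599 and 0.00742). Without PERK KO library 4 the estimate was 2.36 for Psmb8 and 3.42 for Phf11a, and 5.21 for Phf11a without scramble library 5. Several classic members did not pass. Eif2ak2, which encodes the RNA-activated kinase PKR, Adar, an RNA-editing enzyme, and Pml, of nuclear bodies, had 0.13, 0.03 and -0.09 (edgeR adjusted p = 0.659, 0.91 and 0.637), and the chemokine Cxcl10 had 0.12 (0.749).

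Lastly, members that are neighbours in the genome were compared within each library. For 10 pairs of adjacent members within 100000 bases, the log2 ratio of their CPM (with 0.1 CPM added) was set between groups by a two-sided exact permutation test over 70 assignments, whose smallest possible p is 0.0286. Ifit2 and Ifit3 reached it, with a ratio of 2.35 ± 0.15 in scramble and 1.47 ± 0.47 in PERK KO (SD, n = 4 and 4), as did Parp14 and Dtx3l, with -1.11 ± 0.13 and -0.63 ± 0.20. Adjusted over the 10 pairs by Benjamini and Hochberg, the exact permutation p was 0.143 for both. With this smallest p, no pair can pass the adjustment unless at least 6 of the 10 reach it, so the adjusted values say little. Rsad2 and Cmpk2, which share a divergent locus, had ratios of 1.67 ± 0.30 and 2.12 ± 0.48 (exact permutation p = 0.171, adjusted 0.245).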

How the data were processed

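The authors' deposited raw table held counts, whole numbers of reads per gene, for 8 libraries. Per the labels' protocols, strand-specific libraries were made from 100 ng of RNA and read as pairs of 105 bases. STAR 2.5.3a, HTSeq 0.6.1, DESeq2 1.30.1 and bcl2fastq are named in the submitters' processing notes, with mm10. Strand setting and annotation of the counting are not given in the sources used here. A deposited normalized table was not used. All 55450 identifiers matched GENCODE release 21 for mouse, which gave positions, exon lengths and overlaps.

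Genes were filtered with filterByExpr, scaled with TMM and tested over the whole table with edgeR 4.0.16 (glmQLFit, robust, no covariate) in R 4.3.3, with Benjamini-Hochberg adjustment over 16662 genes. The biological coefficient of variation was 46.3%. The quasi-likelihood test gives no SE of its own. Each SE printed with an edgeR log2 difference is that difference, without its sign, over the square root of the test's F statistic. Each library came from its own tumour. Whether each tumour had its own mouse is not stated in the labels, so p-values measure the spread between tumours. Code was tested on simulated data.

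The 42 genes and all other lists were chosen with earlier results of these data known. Every gene of the set is named. Values in every library are given for those with the highest mean or smallest p in each role group, for Irf7 and Usp18, for those nearest 10 CPM and where a library stood apart. Other genes of the pathway were named by a fixed short list and by smallest p. Slfn3, Slfn9, Oas1g, Cgas, Tmem173, Eif2ak2, Adar, Pml and Cxcl10 were chosen after their values were seen.

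Alternatives were DESeq2 1.42.0, limma 3.58.1 (voom with quality weights), other scalings and filters, a fit that is not robust, a replicate block, other class limits and leaving out each library. Scramble and PERK KO libraries share the numbers 2, 3 and 4. Python 3.11.15 was used for tables and plots, with pandas 2.3.3, numpy 2.4.6 and matplotlib 3.10.9.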

Additional observations from a re-analysis of the deposited data

Results flagged for a closer look

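In 10 of the 84 groups of 4 libraries (42 genes in either condition), 1 library stood apart from the other 3 by Dixon's criterion, under which chance alone marks about 1 in 20 groups. The gap to the nearest library is given as a share of the group's range. In PERK KO library 4 it was the highest value that stood apart, with shares of 0.949 for Oas2 (31.7 CPM, next 16), 0.913 for Parp14 (55, next 27.4), 0.871 for Samd9l (122, next 83.3), 0.862 for Slfn5 (96.3, next 33.1), 0.861 for Zbp1 (30, next 7.88) and 0.86 for Ifi203 (63.6, next 27.1). In scramble library 4 it was the lowest value, with 0.877 for Ifi27 (141 CPM, next 166) and 0.874 for Trim30a (4.07, next 6.13). The other two were high values, Samd9l in scramble library 5 (0.983, 72.2 CPM, next 61.2) and Xaf1 in scramble library 3 (0.871, 13.6 CPM, next 11.6).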

How the results depend on the processing

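The count of 23 genes higher in PERK KO tumours stayed within 1.5 times under every other tool, scaling and filter run (17 with no filter to 28 with DESeq2), and none was lower in any setting. Only Ifit1 and Rsad2 were called in all 19 alternatives. Leaving out 1 library gave 12 to 27 genes, 4 to 9 at or above 10 CPM and 8 to 18 below it, and medians from 1.36 to 2.18 for the latter. With libraries 4 of both groups left out, the counts were 14, 4 and 10 and the median below 10 CPM 1.28. A replicate block on the 6 libraries numbered 2, 3 and 4 left 2 genes, 1 in either class, against 19 in the same libraries without it. The median log2 difference of the set moved little, at 1.13 with the block and 1.23 in those 6 libraries without it. The labels document no pairing by number. Residuals of same-numbered libraries correlated at -0.00906, 0.0982 and -0.204, too few values to exclude a pairing. With a limit of 5 CPM, 14 of 30 genes above it and 9 of 12 below were called (median above 0.77), with 20 CPM 3 of 12 above and 20 of 30 below, and by the mean over all 8 libraries 16 of 30 above and 7 of 12 below (medians 0.81 and 1.23). The cause of the changes with the block and with left-out libraries was not tested. Those with the limits follow from the moved boundary.

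Of receptor signalling genes, 3 were called, but 5 with DESeq2, 1 with library totals, 0 with the block, 1 in the 6 libraries without it, 1 without libraries 4 and 1 to 4 without any 1 library. Of the 36 further interferon-stimulated genes, 16 were called, but 0 with the block and 10 without libraries 4. Among single genes of the set, 675 values kept direction and call, 87 lost and 22 gained the call, and 14, all of genes not called, changed sign. Leaving out 1 library gave up to 0.14 for Ifit2, 0.31 for Trim21, 0.36 for Parp9 and 0.0732 for Ifi27. The changed signs were Ifit2 (-0.0377 without PERK KO library 4 and -0.00203 without libraries 4), Parp9 (-0.0755 and -0.17 likewise), Trim21 (-0.0193 with limma-voom, -0.0356 with library totals, -0.0896 and -0.00208 without scramble library 2 or 5, -0.10 and -0.0719 without PERK KO library 2 or 3) and Ifi27 (-0.0411 with library totals, -0.034 without scramble library 4, -0.0277 without PERK KO library 4 and -0.0848 without libraries 4). Oas3, the only gene of the set with a mean below 1 CPM in scramble, had 15, 61, 1 and 13 counts in those libraries.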
